A study of Mus musculus with 7 samples.

Results

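The genes of bile acid synthesis, bile acid transport and the nuclear receptor FXR were followed in primary hepatocytes of wild-type (WT) and *Wdr6*-knockout (WDR6-WKO) mice. The set was defined by name, as *Cyp7a1*, *Cyp7b1*, *Cyp8b1*, *Cyp27a1*, *Baat*, *Slc27a5*, *Slc10a1*, *Abcb11*, *Nr1h4* and *Nr0b2*. No cut on a measured value was used, but earlier results of these data were known when the set was chosen. Of these 10 genes, 8 were found among the 14819 rows of the count table, and *Cyp7a1* and *Cyp8b1* were not analysed here. All 8 passed the filter on low counts. The hepatocytes came from male mice, were isolated by collagenase perfusion, and stood overnight in William's E medium with serum and without further treatment. RNA was sequenced from 4 WT and 3 WDR6-WKO cultures, each described as an independent experiment. WDR6-WKO mice lacked exon 2 of *Wdr6* in every cell of the body through CRISPR–Cas9 editing, so that cells other than hepatocytes also carried the deletion. The labels give no age for these mice, and the study's methods state only a default age for its C57BL/6J mice.

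Hepatocytes turn cholesterol into bile acids by a classic route, which opens with *Cyp7a1*, and an alternative route, which opens with *Cyp27a1* and continues with *Cyp7b1*. The acids are joined to taurine or glycine, exported into bile and taken up again from portal blood. FXR is the receptor that senses bile acids. It induces the export pump and the corepressor SHP, and SHP lowers further synthesis.

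The 7 libraries held 17816913 to 23668940 counted reads. Levels are CPM, counts set to a common library total after TMM scaling, which corrects for differences in library composition. Changes are log2 fold changes of WDR6-WKO against WT with their standard errors (s.e.), and the quasi-likelihood test of edgeR was used. A gene was called changed where its p was under 0.05 after Benjamini-Hochberg adjustment across all 14779 tested genes. *Wdr6* itself stood in WT at 44.0 ± 4.03 CPM (s.d., n = 4), and in WDR6-WKO at 2.38 ± 0.179 CPM (n = 3), which is 5.39% of the WT mean. Over all genes, 12.8% were called, 6.65% higher and 6.18% lower in WDR6-WKO, and the median log2 fold change was 0.01. The calls depended on WDR6-WKO replicate 3. Without that library, 4233 genes were called in place of 1897, whereas leaving out any other library gave 1032 to 1401.

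Of the 8 genes, 5 were called changed. *Nr0b2*, *Cyp7b1* and *Nr1h4* fell, and *Slc27a5* and *Abcb11* rose. This is 62.5% of the genes, beside 12.8% of all genes tested, and the median log2 fold change of the 8 was -0.16. The set was chosen with earlier results of these data known, so these shares are description only. In 7 of the 8 the WT and WDR6-WKO ranges did not overlap, 5 lower and 2 higher, beside 23.5% of all genes. The study's own thresholds ask for a change of 0.35 or more on the log2 scale, up or down, with an unadjusted p under 0.05, and 3 of the 8 passed them (*Nr0b2*, *Cyp7b1* and *Baat*), beside 10.4% of all genes. The number called was 6 without WDR6-WKO replicate 3, 3 without WDR6-WKO replicate 2, 2 without WDR6-WKO replicate 1 or WT replicate 2, and 1 without WT replicate 1, 3 or 4. In these bulk cultures, fewer cells of a type and less RNA per cell cannot be told apart.

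**Figure D1:**
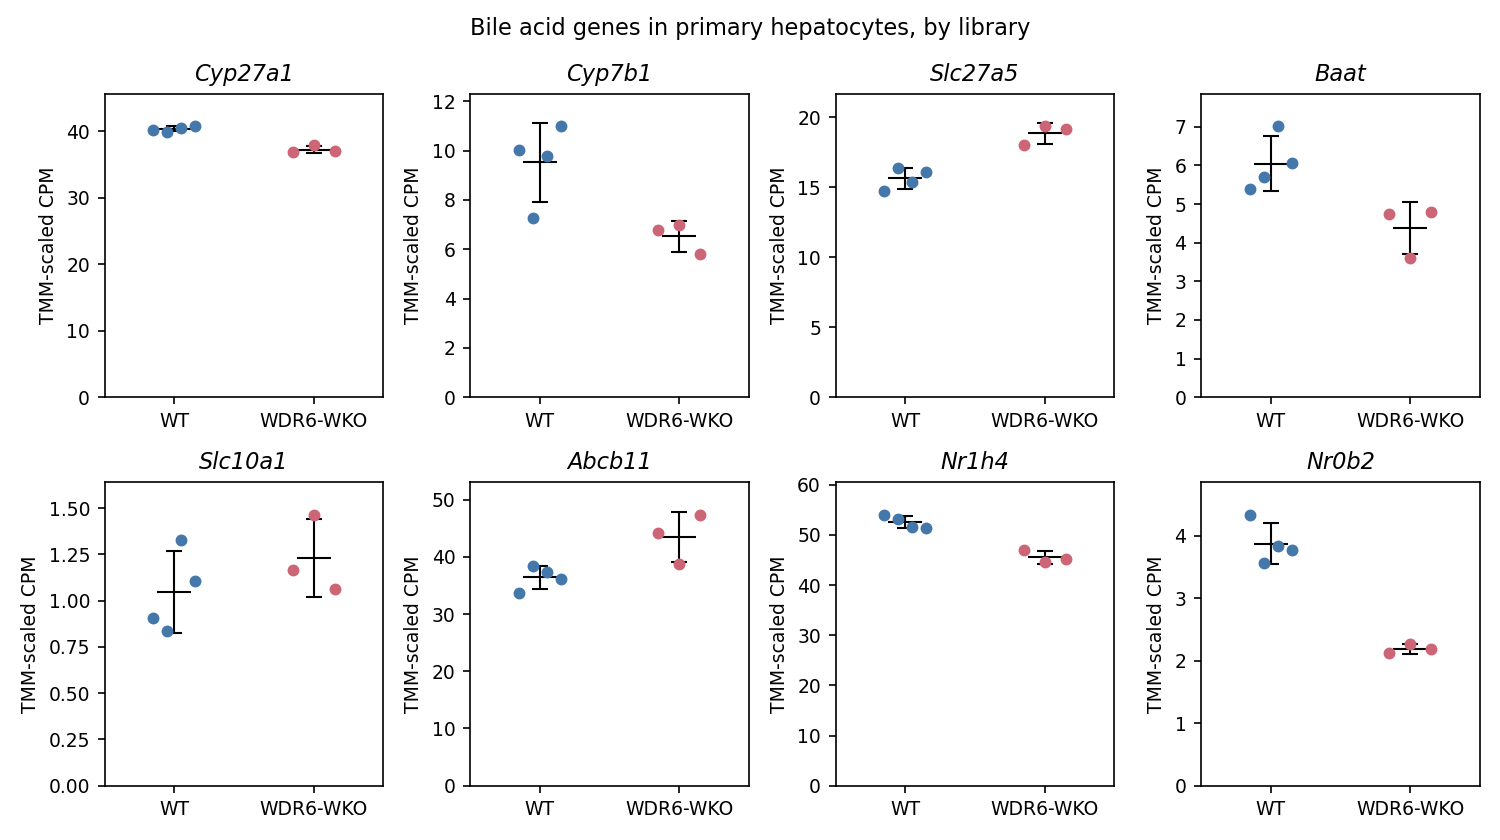
TMM-scaled CPM of the 8 genes in each library (points), with the group mean (horizontal line) and s.d. (bars), 4 WT and 3 WDR6-WKO libraries, on axes that start at 0. *Slc10a1* is the only panel in which the ranges of the groups overlap, and *Nr0b2* shows the widest relative gap, from 3.87 to 2.19 CPM.

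Per kilobase of exon, the receptor gene *Nr1h4* had the highest level in WT, with 22.8 ± 0.549 CPM per kb (s.d., n = 4). It was followed by *Cyp27a1* with 18.6 CPM per kb, *Abcb11* with 7.08, *Slc27a5* with 6.41, *Cyp7b1* with 4.40, *Nr0b2* with 3.42, *Baat* with 3.12 and *Slc10a1* with 0.475 CPM per kb. The WT ranges of neighbours overlapped between *Abcb11* and *Slc27a5*, between *Cyp7b1* and *Nr0b2*, and between *Nr0b2* and *Baat*. In WDR6-WKO the order was the same except that *Baat*, at 2.25 CPM per kb, stood above *Nr0b2*, at 1.93 CPM per kb, with overlapping ranges. The WDR6-WKO ranges of *Abcb11* and *Slc27a5* overlapped as well.

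*Cyp27a1* (chromosome 1, 74713574 to 74737892, plus strand, GRCm38) encodes the mitochondrial sterol 27-hydroxylase that opens the alternative route. It was counted at 40.3, 40.0, 40.6 and 40.8 CPM in WT replicates 1 to 4 and at 36.9, 37.9 and 37.1 CPM in WDR6-WKO replicates 1 to 3. All WDR6-WKO libraries lay below all WT libraries, but the gap was small. The spread was 0.92% of the mean in WT and 1.46% in WDR6-WKO. Both were smaller than the 3.57% expected from counting error alone. The log2 fold change was -0.12 (s.e. 0.06), and the gene was not called (edgeR adjusted p = 0.207, exact permutation p = 0.0286, two-sided). With 4 against 3 libraries, 0.0286 is the smallest p that the 35 splits allow.

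*Cyp7b1* (chromosome 3, 18071950 to 18243338, minus strand) encodes the oxysterol 7-alpha-hydroxylase that acts after CYP27A1, and it fell. Its level was 10.0, 7.28, 9.79 and 11 CPM in WT and 6.77, 6.99 and 5.81 CPM in WDR6-WKO. WT replicate 2 lay well below the other WT libraries and just above the highest WDR6-WKO library. The mean went from 9.52 ± 1.58 to 6.53 ± 0.630 CPM, a log2 fold change of -0.54 (s.e. 0.14, edgeR adjusted p = 0.0204), and the exact permutation test gave p = 0.0571. The call was lost without WT replicate 1 (adjusted p = 0.0549), WT replicate 3 (0.0564), WT replicate 4 (0.0761) or WDR6-WKO replicate 1 (0.0568).

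Bile acids become substrates for conjugation once they are activated with coenzyme A. *Slc27a5* (chromosome 7, 12988346 to 12998192, minus strand) encodes the bile acyl-CoA synthetase for this step, and it rose. It stood at 14.7, 16.3, 15.4 and 16.1 CPM in WT and at 18.0, 19.4 and 19.2 CPM in WDR6-WKO. Every WDR6-WKO library was above every WT library. The log2 fold change was 0.27 (s.e. 0.08, edgeR adjusted p = 0.0429, exact permutation p = 0.0286). Leaving out any library except WDR6-WKO replicate 3 ended the call, with adjusted p of 0.0681 without WT replicate 2, 0.0723 without WDR6-WKO replicate 1, 0.0769 without WT replicate 4, 0.105 without WT replicate 3, 0.107 without WT replicate 1 and 0.147 without WDR6-WKO replicate 2. DESeq2 gave an adjusted p of 0.0552.

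*Baat* (chromosome 4, 49489422 to 49506557, minus strand) encodes the transferase that adds the amino acid. It was at 5.39, 5.71, 7.02 and 6.08 CPM in WT and at 4.74, 3.59 and 4.80 CPM in WDR6-WKO. The groups did not overlap, and WDR6-WKO replicate 2 was the lowest library. The log2 fold change was -0.47 (s.e. 0.15), which did not pass the threshold (edgeR adjusted p = 0.0554, exact permutation p = 0.0286). Without WDR6-WKO replicate 3 the log2 fold change was -0.53 and the adjusted p 0.0168.

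*Slc10a1* (chromosome 12, 80953183 to 80968705, minus strand) encodes NTCP, the sodium-dependent carrier that takes conjugated bile acids up from blood. It was close to the lower end of the table, with 18, 16, 25 and 22 reads in WT and 28, 31 and 19 reads in WDR6-WKO. The group means were 1.04 ± 0.221 and 1.23 ± 0.210 CPM, and the ranges overlapped. The log2 fold change was 0.24 (s.e. 0.27, edgeR adjusted p = 0.613, exact permutation p = 0.257). It was 0.10 without WDR6-WKO replicate 2, 0.15 without WT replicate 2 and 0.37 without WT replicate 3. Counting error alone amounted to 22.2% of the mean in WT, as large as the observed spread of 21.1%, so that a change of the size seen for *Slc27a5* was not detectable at this depth.

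*Abcb11* (chromosome 2, 69238282 to 69342616, minus strand) encodes BSEP, the canalicular pump that exports bile salts, and it rose. It stood at 33.7, 38.5, 37.3 and 36.2 CPM in WT and at 44.3, 38.8 and 47.4 CPM in WDR6-WKO. WDR6-WKO replicate 2 lay next to the highest WT library, and the ranges did not overlap. The log2 fold change was 0.25 (s.e. 0.07, edgeR adjusted p = 0.0368, exact permutation p = 0.0286). The call was lost without WT replicate 1 (adjusted p = 0.104), WT replicate 2 (0.0563), WT replicate 3 (0.0755), WT replicate 4 (0.0931) or WDR6-WKO replicate 1 (0.129). Of the exon bases, 3.01% overlap *Gm13613* and *Gm13614* on the opposite strand, and whether the counting used strand was not stated.

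*Nr1h4* (chromosome 10, 89454234 to 89533585, minus strand) encodes FXR, and it fell slightly. Its level was 54.1, 53.1, 51.6 and 51.4 CPM in WT and 47.0, 44.5 and 45.1 CPM in WDR6-WKO. The spread within each genotype was narrow, and no WDR6-WKO library reached the lowest WT library. It was 2.41% of the mean in WT and 2.79% in WDR6-WKO, where counting error alone gives 3.13% and 3.23%. The log2 fold change was -0.21 (s.e. 0.06, edgeR adjusted p = 0.0272, exact permutation p = 0.0286). The call was lost without WT replicate 1 (adjusted p = 0.0722), WT replicate 2 (0.0779), WT replicate 3 (0.0591), WT replicate 4 (0.0551) or WDR6-WKO replicate 2 (0.105), and also when libraries were scaled by their totals alone (0.0526).

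*Nr0b2* (chromosome 4, 133553376 to 133556536, plus strand) encodes SHP, the corepressor that FXR induces, and it fell the most of the 8 genes. It was at 4.34, 3.56, 3.83 and 3.77 CPM in WT, from 86, 68, 72 and 75 reads. In WDR6-WKO it was at 2.12, 2.27 and 2.18 CPM, from 51, 48 and 39 reads. All 3 WDR6-WKO libraries lay close together and well below the WT range. Their spread, 3.42% of the mean, was smaller than the 14.7% expected from counting error alone. The mean in WDR6-WKO was 56.5% of that in WT, a log2 fold change of -0.82 (s.e. 0.17, edgeR adjusted p = 0.00403, exact permutation p = 0.0286). The call was kept without each of the 7 libraries in turn, with log2 fold changes of -0.86 to -0.76 and adjusted p of 0.00251 to 0.0228.

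*Nr0b2* and *Abcb11* are both known to be induced by FXR, yet one fell and the other rose. The sequences before their start sites are shown, and whether they bear on these directions was not tested. The windows, from RefSeq on GRCm38.p6, run 5′ to 3′ from 250 bases before the start site to 50 bases after it. That of *Abcb11* lies at chr2:69342567-69342866 on the minus strand, and that of *Nr0b2* at chr4:133553126-133553425 on the plus strand. Capitals mark, in *Abcb11*, a match to IR1, the inverted repeat of the nuclear receptor hexamer with 1 base between, which is the known FXR element. In *Nr0b2* they mark a match to CAAGGNCA, the motif of LRH-1, the nuclear receptor encoded by *Nr5a2*.
Abcb11: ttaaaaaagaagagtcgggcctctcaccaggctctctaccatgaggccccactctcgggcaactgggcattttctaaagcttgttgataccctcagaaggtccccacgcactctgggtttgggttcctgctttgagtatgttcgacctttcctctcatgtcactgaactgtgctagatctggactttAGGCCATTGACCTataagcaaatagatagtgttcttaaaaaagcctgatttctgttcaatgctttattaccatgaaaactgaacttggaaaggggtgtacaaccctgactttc
Nr0b2: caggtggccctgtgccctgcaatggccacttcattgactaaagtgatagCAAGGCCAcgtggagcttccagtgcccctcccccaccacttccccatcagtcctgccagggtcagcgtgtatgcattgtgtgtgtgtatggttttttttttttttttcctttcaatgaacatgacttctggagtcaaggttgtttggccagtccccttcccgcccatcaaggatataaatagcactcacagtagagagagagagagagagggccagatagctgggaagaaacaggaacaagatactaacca
The *Abcb11* match begins at position -63 from the start site and has 1 mismatch to IR1, and it holds the hexamer AGGTCA on the other strand at position -56. The search with a mismatch was added after the windows had been read. Both strands were searched, and 0.0822% of all 32851 windows held IR1 with up to 1 mismatch, 0.00913% held it without a mismatch, and 16.3% held AGGTCA. The *Nr0b2* match begins at position -201, and 6.71% of all windows held CAAGGNCA. No AGGTCA or IR1 match was found in the *Nr0b2* window, which says only that these letters are not in this stretch. Windows were at hand for 5 of the 8 genes. Of the other 3, that of *Nr1h4* held AGGTCA on the other strand at position -214, and 1 of the 2 windows of *Slc10a1* held AGGTCA at position -87 and the C/EBP motif TTGCNNAA at positions -75 and -4, the first on the other strand. Both of these windows belong to start sites inside the gene as given above, chr10:89506609-89506908 for *Nr1h4* and chr12:80968030-80968329 for *Slc10a1*, and not to its outer end, and the counts do not tell which start site was used. That motif was in 10.8% of all windows. HNF4A (CAAAGTCCA, 0.475% of all windows), the C/EBP palindrome (TTGCGCAA, 0.183%, also counted under TTGCNNAA) and ATF4 (TGATGNAA, 3.97%) were found in none of the windows of the 8 genes.

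Genes that act in sequence were also compared as a ratio of counts within each library, which does not depend on scaling. Of the 5 ratios planned, 4 could be tested, with p-values adjusted over the 4. The ratio of *Baat* to *Slc27a5* was 36.8%, 35.04%, 45.8% and 37.9% in WT and 26.4%, 18.6% and 25.2% in WDR6-WKO. Each WDR6-WKO ratio was below each WT ratio. The log2 ratio differed by -0.74 (exact permutation p = 0.0286, adjusted p = 0.0571). The ratio of *Nr0b2* to *Nr1h4* was 8.06%, 6.75%, 7.46% and 7.38% in WT and 4.56%, 5.15% and 4.89% in WDR6-WKO. These groups did not overlap either, so that the corepressor gene was lower also in relation to the receptor gene, by -0.61 on the log2 scale (exact permutation p = 0.0286, adjusted p = 0.0571). With these numbers of libraries and ratios, neither adjusted p could pass 0.05 unless more of the ratios had separated.

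The ratio of *Cyp7b1* to *Cyp27a1* was 24.95%, 18.3%, 24.2% and 26.98% in WT and 18.4%, 18.5% and 15.7% in WDR6-WKO. WT replicate 2 fell inside the WDR6-WKO range. The difference of -0.42 on the log2 scale did not pass the test (exact permutation p = 0.114, adjusted p = 0.152). The log2 ratio of export to uptake, *Abcb11* to *Slc10a1*, was 5.11 ± 0.293 in WT and 5.12 ± 0.379 in WDR6-WKO (s.d., exact permutation p = 0.943), and the few reads of *Slc10a1* limit its precision. Its sign turned when WT replicate 3 or 4 or WDR6-WKO replicate 1 or 3 was left out, over a range of -0.14 to 0.22.

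**Figure D2:**
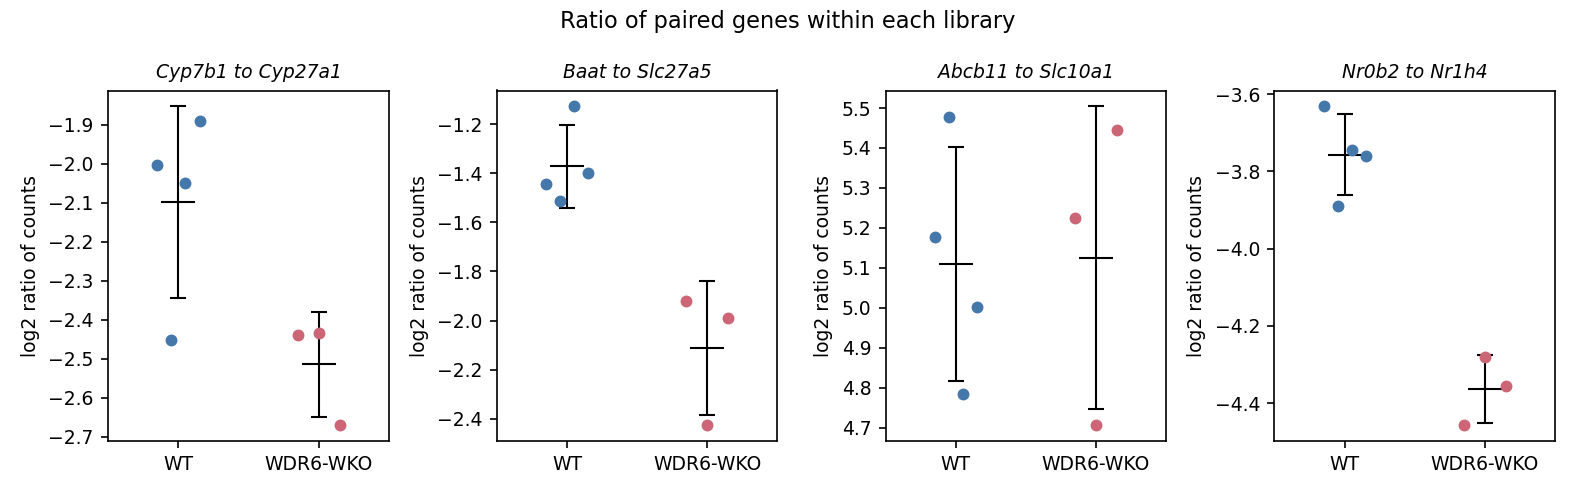
Log2 ratio of the counts of 2 genes within each library (points), with the group mean (horizontal line) and s.d. (bars), 4 WT and 3 WDR6-WKO libraries; the vertical axes do not start at 0. The groups are apart for *Baat* to *Slc27a5* and *Nr0b2* to *Nr1h4*, and overlap for the other 2 ratios.

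Of 13 other enzymes of bile acid synthesis, 11 were tested. Of these, 2 rose, 2 fell and 7 did not pass the test, beside 6.65% of all genes called higher and 6.18% called lower. The median log2 fold change of the 11 was -0.07. *Slc27a2*, the very long-chain acyl-CoA synthetase that activates bile acid precursors, fell from 16.3 ± 1.57 to 8.80 ± 0.546 CPM (log2 fold change -0.89, s.e. 0.10, edgeR adjusted p = 3.952e-05), so the 2 synthetase genes *Slc27a2* and *Slc27a5* changed in opposite directions. An antisense gene, *Gm26697*, covers 11.2% of its exon bases. *Cyp2c70*, which makes muricholic acids in mice, fell from 308.0 ± 3.86 to 238.5 ± 22.4 CPM (log2 fold change -0.37, edgeR adjusted p = 0.000431). *Cyp39a1*, the 24-hydroxycholesterol 7-alpha-hydroxylase, rose from 34.0 ± 1.41 to 43.3 ± 5.25 CPM (log2 fold change 0.35, edgeR adjusted p = 0.00818). *Amacr*, the racemase of side-chain oxidation, rose with a log2 fold change of 0.26 (edgeR adjusted p = 0.0444), a call that only leaving out WDR6-WKO replicate 3 did not end (0.0635 to 0.209 without each of the others). Without WDR6-WKO replicate 3, 7 of the 11 were called.

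Of 14 other transporters of bile acids and canalicular lipids, 11 were tested. None rose, 5 fell and 6 did not pass the test, where 6.18% of all genes were called lower. Their median log2 fold change was -0.26, beside 0.01 over all genes, and 10 of the 11 estimates were below 0, beside 48.8% of all genes. This list, too, was chosen with earlier results of these data known. *Abcb4*, the canalicular phosphatidylcholine exporter, fell from 24.1 ± 1.66 to 16.4 ± 0.290 CPM (log2 fold change -0.56, s.e. 0.08, edgeR adjusted p = 0.000309). *Atp8b1*, the canalicular lipid flippase, fell by 0.40 on the log2 scale (edgeR adjusted p = 0.00141). The basolateral exporters *Abcc3* and *Abcc4* fell from 365.3 ± 12.3 to 305.1 ± 21.8 CPM and from 82.3 ± 2.94 to 70.4 ± 5.17 CPM (edgeR adjusted p = 0.00432 and 0.0225). *Slco1b2*, an uptake carrier of organic anions, fell from 3.08 ± 0.688 to 1.87 ± 0.460 CPM with overlapping ranges (edgeR adjusted p = 0.0456, but 0.0574 by limma-voom, 0.0526 with library totals alone and 0.0533 without robust dispersion). The pump gene *Abcb11* thus rose while these 5 fell. The count of 5 was 7 without WDR6-WKO replicate 3 and 3 without WT replicate 2 or 4 or WDR6-WKO replicate 1 or 2. The call of *Slco1b2* was lost without any of these last 4 or WT replicate 1 (adjusted p up to 0.183), and that of *Abcc4* without the same 5 (up to 0.112).

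Of 17 other regulators, 16 were tested, and 1 rose, 5 fell and 10 did not pass the test. Over all genes, 6.65% were called higher and 6.18% lower. The median log2 fold change of the 16 was -0.16. *Onecut1*, a hepatic transcription factor, fell from 4.73 ± 0.499 to 2.07 ± 0.410 CPM (log2 fold change -1.18, edgeR adjusted p = 0.000438), but 52.8% of its exon bases are shared with *Gm20649*, so its count is uncertain. *Prox1*, a corepressor of bile acid synthesis, fell from 61.8 ± 1.22 to 40.3 ± 4.91 CPM (log2 fold change -0.62, edgeR adjusted p = 4.76e-05). *Hnf4a*, which drives much of the hepatocyte programme, fell from 385.3 ± 11.5 to 319.8 ± 27.7 CPM (log2 fold change -0.27, edgeR adjusted p = 0.00502). *Cebpa* fell by 0.29 (edgeR adjusted p = 0.0186), and *Nr1i2*, which encodes the xenobiotic receptor PXR, by 0.31 on the log2 scale (edgeR adjusted p = 0.0329). *Mafg*, a repressor that FXR induces, rose with a log2 fold change of 0.18 (edgeR adjusted p = 0.0485). *Nr5a2*, which encodes LRH-1, was at 39.9 ± 3.69 and 33.6 ± 4.55 CPM and did not pass the test (edgeR adjusted p = 0.0828). The count of 6 was 9 without WDR6-WKO replicate 3 and 3 without WT replicate 1 or 2. The call of *Cebpa* was lost without WT replicate 1 or 2 or WDR6-WKO replicate 1 (adjusted p up to 0.0604), that of *Nr1i2* without any WT replicate or WDR6-WKO replicate 2 (up to 0.107), and that of *Mafg* without any library but WDR6-WKO replicate 3 (up to 0.216). *Mafg* was also not called by limma-voom (adjusted p = 0.0529), with median-of-ratios size factors (0.0535) or without robust dispersion (0.0532), and *Nr1i2* was not called with library totals alone (0.0521).

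Of 12 genes known to be induced by FXR, 9 were tested. Of these, *Abcb11* and *Mafg* rose, *Nr0b2* and *Abcb4* fell, and 5 did not pass the test (*Abcc2*, *Sdc1*, *Pltp*, *Apoc2* and *Fetub*), so the list did not move in a single direction. Its median log2 fold change was -0.11. The called genes of this list were all counted above as well, *Abcb11* and *Nr0b2* in the set of 8, *Abcb4* as a transporter and *Mafg* as a regulator. Over all genes, 6.65% were called higher and 6.18% lower. The number of FXR-induced genes called was 6 without WDR6-WKO replicate 3 and 2 without WDR6-WKO replicate 1 or any single WT library. Over the synthesis, transport, regulator and FXR-induced lists, 9 of the 15 called genes outside the set of 8 were called under all 15 refits, namely *Cyp39a1*, *Slc27a2*, *Cyp2c70*, *Abcc3*, *Abcb4*, *Atp8b1*, *Hnf4a*, *Prox1* and *Onecut1*.

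**Figure D3:**
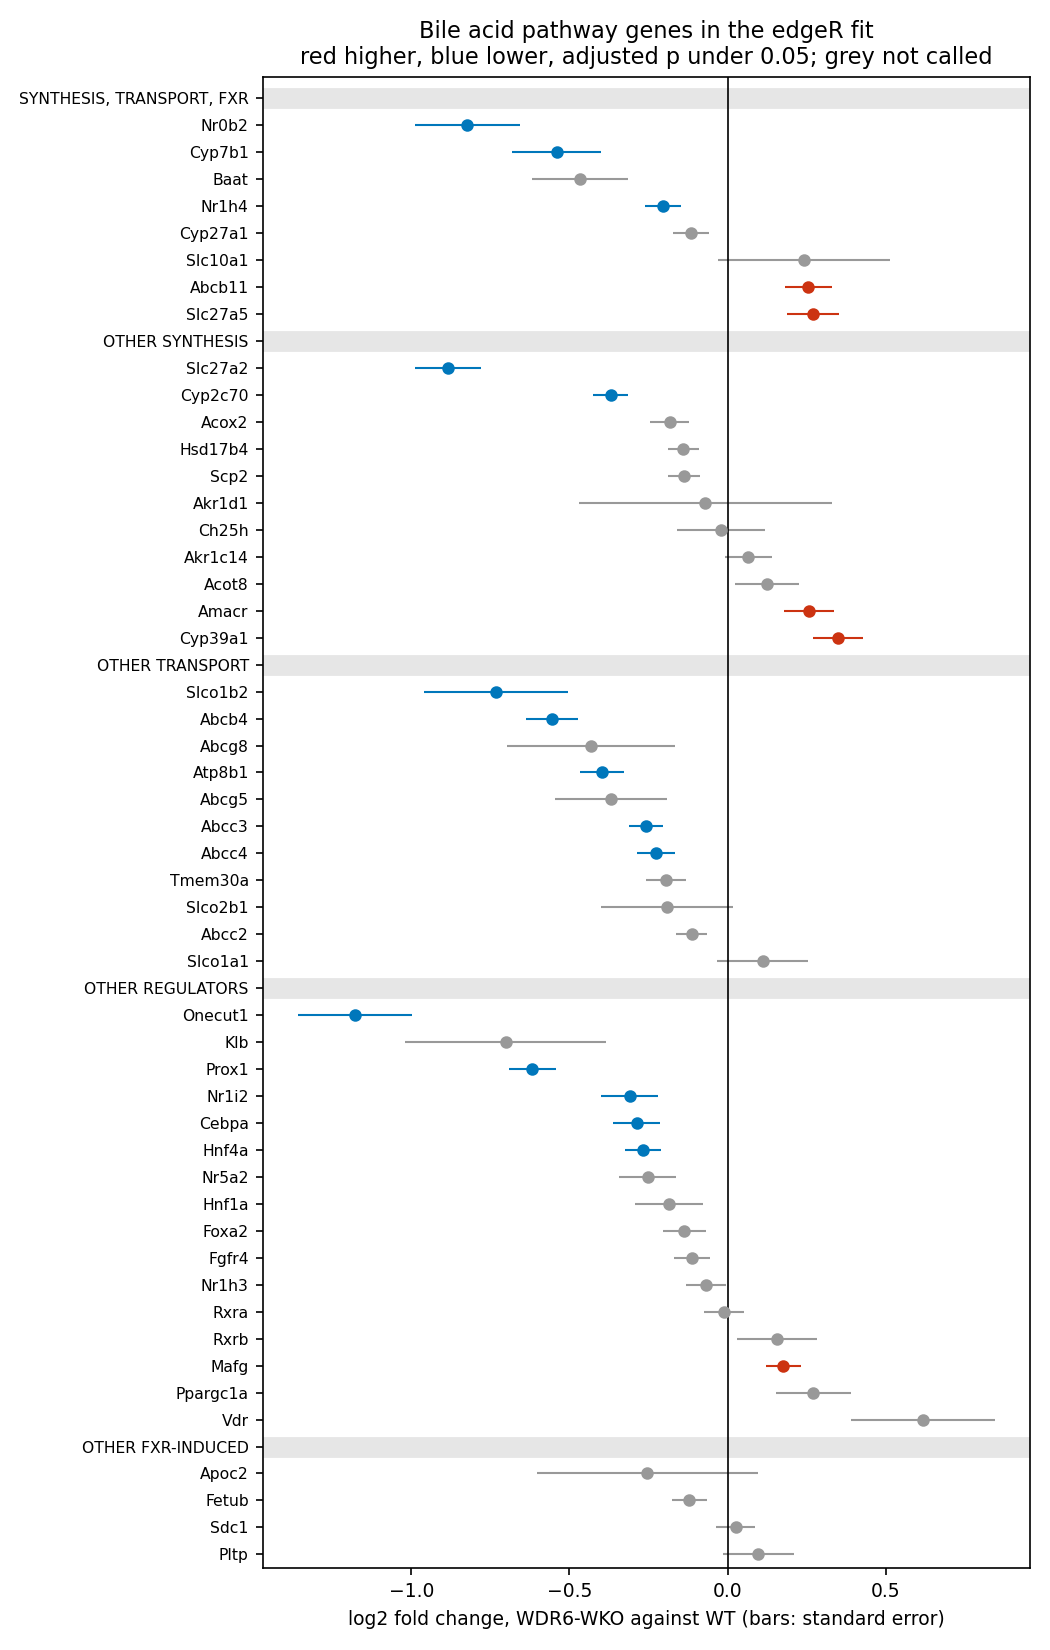
Log2 fold change of WDR6-WKO against WT (points) with its standard error (bars) for each bile acid gene tested, red where called higher, blue where called lower and grey where not called. The other transporters lie left of 0 in 10 of 11 cases, whereas synthesis enzymes lie on both sides.

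Markers of some zones and cell types moved with genotype as well, and their part in the results above was not tested. Over all genes tested, 6.65% were called higher and 6.18% lower, and the counts below are to be read beside these shares. The endothelial list, with 1 of 10 called, was near the 12.8% called in either direction. Of 12 pericentral hepatocyte genes tested, 9 fell and none rose, and their summed level was 459.4 to 490.3 CPM in WT and 325.4 to 341.4 CPM in WDR6-WKO (5 called without WDR6-WKO replicate 2). Of 10 periportal genes, 3 rose and 1 fell, with summed levels of 391.1 to 401.6 and 475.4 to 480.8 CPM. In CPM, *Glul* changed most among the pericentral genes, with means of 224.5 in WT and 150.5 in WDR6-WKO. Among the periportal genes *Cdh1* did, with means of 197.2 and 249.0 CPM. Of 9 hepatocyte markers, 1 rose and 3 fell, and the summed ranges overlapped (19680 to 23450 and 18670 to 20400 CPM), with *Alb*, which defines hepatocytes, at 7366 CPM in WT. Of 13 Kupffer cell markers, 4 rose and none fell (863.9 to 943.9 and 999.7 to 1199 CPM), and 8 were called without WDR6-WKO replicate 3. Those that rose were *C1qb*, *C1qc*, *Lyz2* and *Fcgr1*. *Clec4f*, *Vsig4*, *Cd5l* and *Timd4* were not called (edgeR adjusted p = 0.311, 0.145, 0.0687 and 0.0880). Estimates of 12 of the 13 lay above 0, and that of *Timd4* lay below (-0.485). Of 9 cholangiocyte markers, *Sox9* and *Spp1* rose, and *Krt19* was at 148.2 and 142.9 CPM. The 9 markers summed to 3162 to 3460 CPM in WT and 3805 to 4393 CPM in WDR6-WKO. *Spp1* alone, with means of 2980 CPM in WT and 3693 CPM in WDR6-WKO, made up most of that difference. Among the 9 markers, 4 estimates lay above 0 and 5 below. The number called was 1 without WT replicate 1, 2 or 3 or WDR6-WKO replicate 2, and 4 without WDR6-WKO replicate 3. Of 10 endothelial markers 1 fell, a call lost without WT replicate 3 or 4 or WDR6-WKO replicate 2, and of 9 stellate cell markers 2 rose and 1 fell. Their summed levels overlapped between genotypes. Of 16 genes known to rise as hepatocytes lose identity in culture, 1 rose and 2 fell, with a median log2 fold change of -0.03 and 7 estimates above 0 and 9 below, and 6 were called without WDR6-WKO replicate 3. Their summed level was 23440 to 24110 CPM in WT and 20480 to 22520 CPM in WDR6-WKO, and the keratin genes *Krt8* (5938 and 4886 CPM) and *Krt18* (4272 and 3565 CPM), which fell, made up most of that difference.

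**Figure D4:**
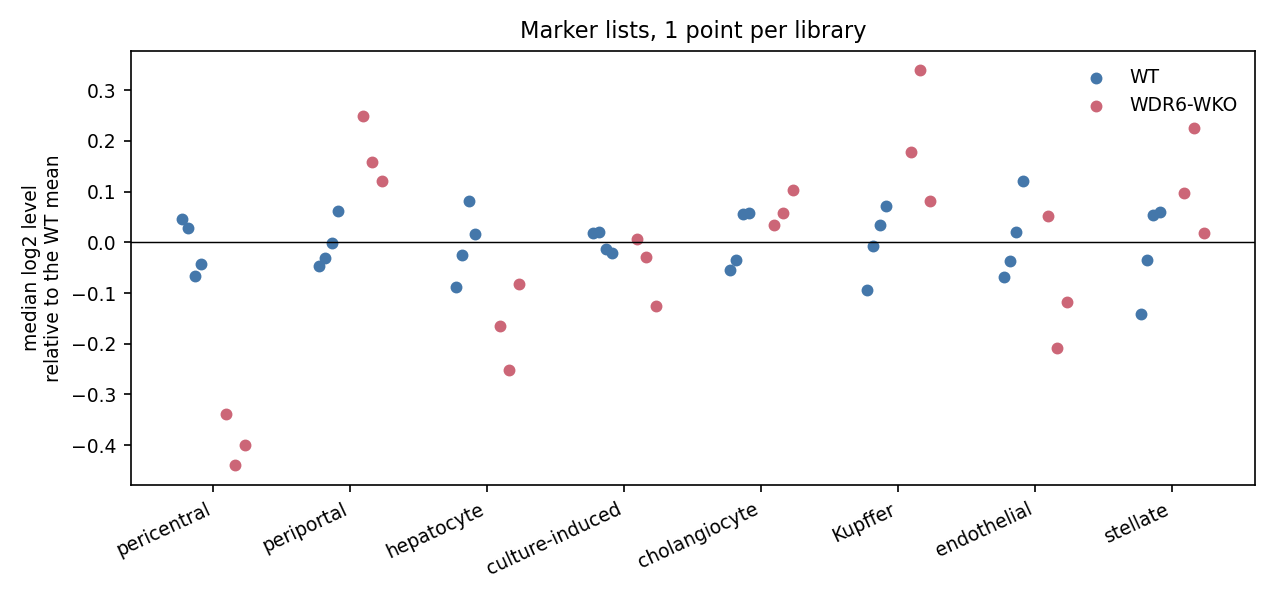
Median over each marker list of the log2 level relative to the WT mean, 1 point per library, 4 WT and 3 WDR6-WKO libraries. The pericentral points of WDR6-WKO lie between -0.44 and -0.34, and its periportal points between 0.12 and 0.25.

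Genes with the most similar pattern over the 7 libraries were sought for the 4 called genes with the smallest p, by the root mean square difference in log2 CPM relative to the WT mean, among 13441 genes with a mean of at least 1 CPM. For *Nr0b2* these were *Anpep* (difference 0.0644), *Ak3l2-ps* (0.0646), a pseudogene that shares most of its sequence with *Ak4* and is therefore uncertain, and *Serpinf2* (0.0662). For *Cyp7b1* they were *Npnt* (0.0544), *Gpr17* (0.0783) and *Tek* (0.102). For *Nr1h4* they were *Plcb3* (0.017), *Tgfbr2* (0.0244) and *Mtss1* (0.0252), and for *Abcb11* they were *Tent5a* (0.0348), *Sco1* (0.0384) and *Mak16* (0.0439). *Sco1* itself was not called (edgeR adjusted p = 0.0563), and 39.4% of the exon bases of *Mak16* overlap *Tti2* on the opposite strand.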

How the data were processed

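Total RNA of 4 WT and 3 WDR6-WKO hepatocyte cultures was sequenced on an Illumina HiSeq platform. The authors aligned reads with Bowtie2 2.2.3 to mm10 and deposited raw counts per gene symbol. The counting tool, its annotation and its use of strand are not given in the sources used here. No row of the table totals fewer than 50 reads, and 21 rows carry spreadsheet dates in place of symbols and were tested without a name. The 7 libraries hold 17816913 to 23668940 counts, and the biological coefficient of variation was 7.40%.

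Samples were grouped by the genotype in the labels. Counts were analysed with edgeR 4.0.16 in R 4.3.3 (TMM, filterByExpr, robust quasi-likelihood, genotype alone). The study used DESeq2. Standard errors were derived from the F statistic of each gene. Single genes (log2 CPM, 0.5 CPM added) and log2 ratios (0.5 counts added) were tested by two-sided exact permutation over 35 splits. For genes with few reads, the difference so tested is smaller than the printed log2 fold change, as for *Nr0b2* with -0.699. On simulated counts, the edgeR step, run on 14720 genes, recovered 167 of 200 changed genes, with 9 false calls. All planted changes were larger than those seen here for *Cyp7b1*, *Baat*, *Slc27a5*, *Abcb11* and *Nr1h4*, so recovery at such sizes was not tested. The alternatives were DESeq2 1.42.0, limma-voom (limma 3.58.1), other scalings and filters, a replicate block, the study's thresholds and each library left out. Gene models came from GENCODE (GRCm38) and promoters from RefSeq (GRCm38.p6).

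The genes and lists were chosen with earlier results of these data known. Named were the 8 genes, *Wdr6*, called genes of the synthesis, transport, regulator and FXR-induced lists (up to 5 per list and direction), and the 3 genes most like each of 4 called genes. Other genes named, among them marker genes, *Nr5a2*, *Soat2* and the uncalled FXR-induced genes, were chosen after their values were seen.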

Additional observations from a re-analysis of the deposited data

Results flagged for a closer look

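In WT, 27 groups of 4 values were checked for a library far from the others, and 2 were found, where chance gives about 1 in 20. *Slc27a2* was at 15.5, 15.4 and 15.6 CPM in WT replicates 1 to 3 and at 18.6 CPM in WT replicate 4, a gap of 0.943 of the whole range (limit 0.829). All 3 WDR6-WKO libraries, at 8.77, 9.36 and 8.27 CPM, lay below all 4. *Onecut1* was at 4.44, 4.45 and 4.57 CPM in WT replicates 1, 2 and 4 and at 5.48 CPM in WT replicate 3, a gap of 0.873 of the range. Its WDR6-WKO libraries were at 2.49, 2.03 and 1.68 CPM. Both genes kept their call without the library that stood apart.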

How the results depend on the processing

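The direction of all 8 genes was kept under every alternative run, and *Nr0b2* was the only one called under all of them. The replicate numbers did not pair the samples: the deviations of same-numbered libraries correlated at 0.069, 0.031 and 0.057. No WDR6-WKO library shares the number of WT replicate 4, so that library adds nothing to the genotype estimate in a replicate block. With the replicate block, 2 of the 8 genes and 2 FXR-induced genes were called, with *Cyp7b1* at -0.459, *Slc27a5* at 0.284 and *Abcb11* at 0.251 on the log2 scale (edgeR adjusted p = 0.0514, 0.061 and 0.0604). Lost calls under this setting can thus also reflect fewer libraries. *Mafg*, *Amacr* and *Slco1b2* were not called with it either (0.0556, 0.0837 and 0.136). The study's thresholds passed 3 of the 8 genes, 2 other synthesis genes, 3 other transporters and 2 FXR-induced genes. They added *Baat* (-0.467) and dropped *Slc27a5* (0.269), *Abcb11* (0.255) and *Nr1h4* (-0.206), whose changes are under 0.35. DESeq2 did not call *Slc27a5* (0.264, adjusted p = 0.0552), and library totals alone did not call *Nr1h4* (-0.179, edgeR adjusted p = 0.0526). Where no construction is named, the cause was not tested.

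With each library left out in turn, 1032 to 4233 genes were called in all, 1 to 6 of the 8 genes, 3 to 7 other synthesis genes, 3 to 7 other transporters, 3 to 9 other regulators and 2 to 6 FXR-induced genes. Log2 fold changes ran from -0.65 to -0.465 for *Cyp7b1*, 0.241 to 0.299 for *Slc27a5*, 0.096 to 0.373 for *Slc10a1*, -0.129 to -0.111 for *Cyp27a1*, -0.538 to -0.343 for *Baat*, 0.19 to 0.329 for *Abcb11*, -0.233 to -0.19 for *Nr1h4* and -0.861 to -0.764 for *Nr0b2*. The log2 ratio of *Abcb11* to *Slc10a1*, 0.015 over all libraries, became -0.094 without WT replicate 3, -0.021 without WT replicate 4, -0.035 without WDR6-WKO replicate 1 and -0.145 without WDR6-WKO replicate 3, and reached 0.224 without WDR6-WKO replicate 2. With a library left out, the exact test of a ratio cannot reach 0.05. Depth limits *Slc10a1* most, with 16 to 31 reads per library.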

Other observations

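Of 9 genes that handle cholesterol, 8 were tested, with a median log2 fold change of 0.002. *Soat2*, which encodes the acyltransferase that esterifies cholesterol in hepatocytes, rose from 8.39 ± 1.20 to 19.5 ± 4.41 CPM (mean ± s.d. of 4 WT and 3 WDR6-WKO libraries), with a log2 fold change of 1.22 (s.e. 0.14, edgeR adjusted p = 7.234e-05). Its lowest WDR6-WKO library, at 16.2 CPM, was above its highest WT library, at 10.1 CPM. *Soat2* was the only gene of the list called, where 12.8% of all genes tested were called. The count for the list was 2 by DESeq2, without WT replicate 2, without WDR6-WKO replicate 3 or by the study's thresholds.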
